A study of Drosophila melanogaster with 2 samples.

Results

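The core Notch pathway genes described here are 10 Drosophila melanogaster genes taken by name: the ligand genes Dl and Ser, the receptor gene N, the genes neur, kuz and fng that act on ligand or receptor, the nuclear factors Su(H), mam and H, and the inhibitor numb. They are 10 of the 13945 protein-coding genes on the chromosome arms in the Ensembl annotation of the fly genome. A summit, the position of strongest signal in a region, was given to a gene when it lay in the gene or within 2 kb of either end. By that rule 34 of the 4447 regions in the authors' list of reproducible regions belonged to these genes, and 8 of the 10 genes had at least 1.

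The measurement was chromatin immunoprecipitation with sequencing (ChIP-seq) on whole embryos aged 0 to 24 h, both sexes together, from a transgenic line that stably carries bsh with GFP fused to the C terminus of its protein. Bsh (brain-specific homeobox) is a homeodomain transcription factor known from neurons of the brain and optic lobe. The experiment description names an anti-GFP antibody, while the antibody field of the sample labels reads bsh, and which of them was used was not settled from the files. Both libraries, 2 biological replicates, are of this 1 genotype and stage. No control library was analysed here, the line is the only one studied, and whole embryos pool every tissue and a full day of development, so a region cannot be placed in a cell type.

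In Notch signalling, a ligand on one cell, Delta or Serrate in flies, binds the receptor Notch on its neighbour. Ubiquitination and endocytosis of the ligand, and cleavage of the receptor by a metalloprotease and then by gamma-secretase, free the receptor's intracellular domain, which enters the nucleus and joins Su(H) and Mastermind at target genes. The pathway is known in the fly embryo for limiting how many cells of the ectoderm become neural precursors, and for giving the daughters of those precursors different fates.

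Regions were read in 4 deposited lists on the dm6 build: the optimal IDR list, made by a method that keeps regions ranked alike in replicates (irreproducible discovery rate, IDR), and relaxed lists of 30000 regions each for the pooled libraries, replicate 1 and replicate 2. The relaxed lists hold background by design. The authors' signal value orders regions within a list, neither the labels nor the file headers state its scale, and it was never compared between lists; ranks were used instead, rank 1 being the strongest. The IDR list was checked to be exactly the top 4447 of the pooled list by signal, so the same number of strongest regions was taken from each replicate. Read depth is unknown, and with 1 group of 2 samples no test was made: the values are descriptions, and an interval on a share covers counting error only. In bound regions the extent of binding per cell and the number of cells bound cannot be told apart.

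**Figure D1:**
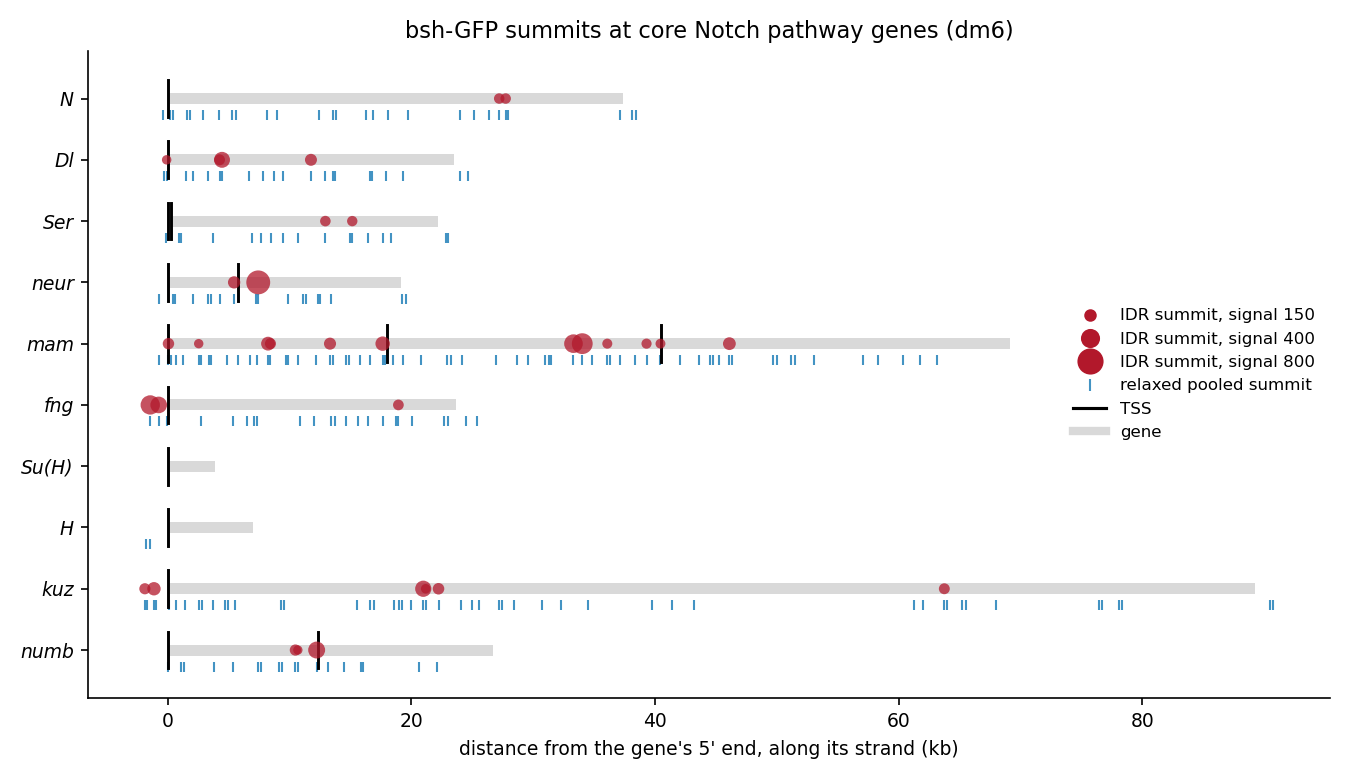
Positions of bsh-GFP summits at the 10 genes. The horizontal axis is the distance in kb from each gene's 5′ end along its strand, grey bars are genes, black lines are annotated transcription start sites, red circles are IDR summits with area proportional to the authors' signal, and blue ticks are relaxed pooled summits. The circle of largest area, with a signal of 788.85, lies in neur, mam carries 12 circles, and Su(H) and H carry none.

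The reference sequence is printed first at 3 summits, of ranks 67, 268 and 505. They are the best-ranked regions of neur, fng and numb, 151 bp each, centred on the summit and read from the plus strand of the RefSeq copy of Release 6 of the genome (the assembly behind dm6). Capitals mark the searched words: CAATTA, a variant of the homeodomain core, in the fng window, and the E-box CAGCTG in the numb window. The neur window has no capitals because none of the words searched is in it. Not printed are the mam regions of ranks 182 and 323, both stronger than the numb region. They have CAATTA 28 and 30 bp from their summits.
neur, chr3R:9031971-9032121: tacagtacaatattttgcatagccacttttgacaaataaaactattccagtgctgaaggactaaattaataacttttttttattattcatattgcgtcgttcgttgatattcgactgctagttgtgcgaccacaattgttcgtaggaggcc
fng, chr3L:20950876-20951026: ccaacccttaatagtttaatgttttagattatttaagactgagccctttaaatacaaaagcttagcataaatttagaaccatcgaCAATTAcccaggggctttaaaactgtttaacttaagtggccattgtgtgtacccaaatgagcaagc
numb, chr2L:9449613-9449763: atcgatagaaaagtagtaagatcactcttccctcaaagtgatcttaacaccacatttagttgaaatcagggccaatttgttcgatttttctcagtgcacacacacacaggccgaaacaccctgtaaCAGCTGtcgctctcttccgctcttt

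Next are 4 windows that hold the homeodomain core TAATTA or the GAGA factor word GAGAGA within the printed stretch, at Dl, neur and N. They are shown because such words lay within 32 bp of each of these summits, and were picked after the matches had been seen. The intron 1 window of Dl at 19321966 also has GAGAGA, 23 bp from its summit and 7 times within 100 bp, and is not printed here; its region overlaps the strongest one of Dl. TAATTA occurs in the intron 3 window of Dl and in the neur promoter window. GAGAGA occurs in the N window and, on the minus strand and so printed as TCTCTC, in the Dl promoter window.
Dl, chr3R:19314390-19314540: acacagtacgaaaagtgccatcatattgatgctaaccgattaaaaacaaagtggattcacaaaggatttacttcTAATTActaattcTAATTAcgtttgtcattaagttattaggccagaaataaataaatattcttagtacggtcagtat
neur, chr3R:9033951-9034101: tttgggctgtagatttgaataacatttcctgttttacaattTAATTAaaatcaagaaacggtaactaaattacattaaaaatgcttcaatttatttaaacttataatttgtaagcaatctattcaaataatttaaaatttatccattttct
N, chrX:3161996-3162146: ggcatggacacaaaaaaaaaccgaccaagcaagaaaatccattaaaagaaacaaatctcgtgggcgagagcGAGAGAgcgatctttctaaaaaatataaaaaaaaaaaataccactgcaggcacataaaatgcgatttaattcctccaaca
Dl, chr3R:19326234-19326384: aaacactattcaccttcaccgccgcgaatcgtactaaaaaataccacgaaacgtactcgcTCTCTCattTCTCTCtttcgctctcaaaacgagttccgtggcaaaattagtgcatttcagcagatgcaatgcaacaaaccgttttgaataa

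Bsh-GFP regions lay at both ligand genes, in introns of both and at the start site of Dl alone. Dl (annotated as Delta, FBgn0000463) spans chr3R:19302731-19326217 on the minus strand and encodes the Notch ligand Delta. It had 4 IDR summits, and 21, 23 and 19 summits in the pooled, replicate 1 and replicate 2 relaxed lists. The strongest Dl region, chr3R:19321627-19321917, had a signal of 351.44 in the pooled libraries (rank 655), 218.5 in replicate 1 (rank 569) and 125.6 in replicate 2 (rank 1076). Its summit lay in intron 1, 4451 bp downstream of the only annotated start site, and placed Dl at position 810 when the 3470 bound genes were ordered by their best signal. A second intron 1 summit, at 19321966, was 200 bp away with a signal of 163.02, overlapped the first region, and matched the same region in each replicate, so that the pair may be read as 1 stretch of signal.

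The intron 3 region of Dl, chr3R:19314426-19314579, had a signal of 198.93 and ranked 1923 in the pooled list, 2270 in replicate 1 and 1707 in replicate 2. Its printed window holds TAATTA at 2 places, the nearer 1 bp from the summit. At the Dl start site the region chr3R:19326089-19326528 was weaker, with a signal of 124.35 (rank 4210), a summit 92 bp upstream of the start site, and ranks of 5512 in replicate 1 and 4601 in replicate 2. Neither replicate had it among its strongest 4447, and it stood near the end of the IDR list, whose lowest signal was 119.6.

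Ser (FBgn0004197) spans chr3R:27172090-27194267 on the minus strand and encodes the other ligand, Serrate. It had 2 IDR summits and 17, 23 and 13 relaxed summits in the pooled, replicate 1 and replicate 2 lists. The region in intron 6, chr3R:27181112-27181551, had a signal of 154.74 (rank 2944) and ranked 3502 in replicate 1 and 3391 in replicate 2. The region in intron 8, chr3R:27178906-27179345, had a signal of 149.04 (rank 3136) and ranked 3926 and 3005 in replicates 1 and 2. These summits lay 12663 and 14869 bp from the nearer Ser start site, and the intron 8 summit was nearer to the start of spn-D, at 13410 bp. Each start site of Ser had the same relaxed pooled region, of rank 7547, within 500 bp and no IDR summit.

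The receptor gene N had a pair of neighbouring regions deep in an intron. N (FBgn0004647) spans chrX:3134870-3172221 on the plus strand and encodes the receptor Notch. The region chrX:3162409-3162657 had a signal of 151.65 in the pooled libraries (rank 3050), 69.31 in replicate 1 (rank 4520) and 90.95 in replicate 2 (rank 1938). The region chrX:3161905-3162198, whose window is printed above, had a signal of 151.02 (rank 3071), 69.89 in replicate 1 (rank 4463) and 96.66 in replicate 2 (rank 1725). Both summits were in intron 5, 533 bp apart and 27734 and 27201 bp downstream of the N start site, and both were nearer to the start of CG18508, at 10536 and 11069 bp.

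N was the only one of the 8 bound genes without a region among the strongest of replicate 1: both of its IDR regions came just after rank 4447 there. A relaxed summit 392 bp upstream of the N start site had a pooled signal of 114.71 and rank 4759, with ranks of 8452 in replicate 1 and 3450 in replicate 2. That summit lies inside the annotated extent of the neighbouring gene kirre. Another intron 5 summit, at 3162811, had a signal of 117.96 and rank 4547, so that both fell a little outside the IDR list.

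Among the genes that act on ligand or receptor, neur held the strongest region of the whole set. Neur (FBgn0002932), at chr3R:9020348-9039471 on the minus strand, encodes Neuralized, the E3 ubiquitin ligase that drives Delta endocytosis. Its region chr3R:9031806-9032316 had a signal of 788.85 in the pooled libraries (rank 67), 437.0 in replicate 1 (rank 73) and 348.9 in replicate 2 (rank 74). The 3 ranks lay within 7 places of each other, and neur came at position 101 of the 3470 bound genes. The summit was in intron 1, 1685 bp downstream of the internal start site at 9033731. The other neur region, chr3R:9033806-9034245, lay 295 bp upstream of that start site, with a signal of 209.69 (rank 1756), 146.6 in replicate 1 (rank 1266) and 68.72 in replicate 2 (rank 3292). The upstream start site of neur, at 9039471, had within 500 bp a pooled relaxed region of rank 25127, a replicate 2 region of rank 13280 and none in replicate 1.

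Kuz (FBgn0259984), at chr2L:13550139-13639411 on the plus strand, encodes Kuzbanian, the ADAM metalloprotease that cleaves ligand-bound Notch. At 89.3 kb it was the longest gene of the set, and it had 6 IDR summits and 50, 43 and 46 relaxed summits in the pooled, replicate 1 and replicate 2 lists. The strongest, in intron 3 at chr2L:13570943-13571194, had a signal of 364.33 in the pooled libraries (rank 607), 225.1 in replicate 1 (rank 524) and 143.5 in replicate 2 (rank 806). A weaker summit at 13571310 (signal 126.27, rank 4105) belonged to an overlapping region, and one more in the same intron, at 13572360, had a signal of 184.93 (rank 2165). The intron 5 summit at 13613875, 63736 bp from the kuz start site, had a signal of 164.69, with ranks of 4219 in replicate 1 and 2104 in replicate 2.

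The other kuz summits lay upstream and are shared with a neighbour. The summit at 13549006 (signal 247.52, rank 1339) was 1133 bp upstream of the kuz start site and 322 bp from the start of B4. The summit at 13548260 (signal 172.58, rank 2462) was 1879 bp upstream of kuz and 489 bp from the start of B4, and it showed the widest gap between replicates, with rank 1523 in replicate 1 and rank 9484 in replicate 2. At the kuz start site itself a summit 96 bp downstream had a signal of 117.68 and rank 4567, just outside the IDR list.

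Fng (FBgn0011591), at chr3L:20925891-20949512 on the minus strand, encodes Fringe, the glycosyltransferase that alters which ligand Notch responds to. Its strongest regions lay upstream of the gene. The region chr3L:20950713-20951150 had a signal of 515.48 in the pooled libraries (rank 268), 299.3 in replicate 1 (rank 267) and 216.2 in replicate 2 (rank 319), with its summit 1439 bp before the start site. The region chr3L:20950082-20950457, 746 bp before the start site, had a signal of 382.32 (rank 546), 220.6 in replicate 1 (rank 550) and 172.0 in replicate 2 (rank 535). These were the only IDR summits of the set in intergenic sequence more than 500 bp from any protein-coding start site. An intron 4 region at chr3L:20930364-20930803 had a signal of 159.22 (rank 2804) and lay 2758 bp from the start of CG10589. Within 50 bp of the fng start site the pooled list had a region of rank 5470, which ranked 13077 in replicate 1 and 2519 in replicate 2.

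Of the 3 nuclear factors, mam had more summits than any other gene of the set, and Su(H) and H had no IDR summit. Mam (FBgn0002643) spans chr2R:13991203-14060356 on the plus strand and encodes Mastermind, the coactivator that joins the complex of Su(H) and the Notch intracellular domain. It had 12 IDR summits, with 65, 63 and 59 relaxed summits in the pooled, replicate 1 and replicate 2 lists, and 16 genes of the annotation, mam included, had as many or more. Its strongest summit, at 14025222, had a signal of 598.97 in the pooled libraries (rank 182), 364.9 in replicate 1 (rank 146) and 247.7 in replicate 2 (rank 226). The next, at 14024501, reached 480.14 in pooled signal and ranked 323 there and in each replicate. Both lay in introns, 3398 and 4119 bp from the start of CG18371, which was nearer than any mam start site.

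Each of the 3 mam start sites had an IDR summit within 500 bp. The summit at 14008840, 359 bp upstream of the middle start site, had a signal of 288.96 (rank 1002), with rank 1678 in replicate 1 and rank 613 in replicate 2. At the first start site the summit was 56 bp downstream with a signal of 180.6, and at the last it was 22 bp upstream with a signal of 134.92. The summits at 13999432, 14037297 and 14004518 completed the 6 strongest, with signals of 265.14, 227.11 and 201.56 and distances of 8229, 5634 and 4681 bp from the nearest mam start site. The other 4 had signals between 122.33 and 169.38.

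Su(H) (FBgn0004837) encodes Suppressor of Hairless, the DNA-binding factor of the pathway, and spans chr2L:15039488-15043334 on the plus strand. It had 0 summits in all 4 lists, relaxed lists included, in the gene or within 2 kb. H (FBgn0001169), at chr3R:20621938-20628915 on the plus strand, encodes Hairless, the adaptor that turns Su(H) into a repressor by bringing in co-repressors. H had 2, 2 and 1 relaxed summits in the pooled, replicate 1 and replicate 2 lists. The stronger pooled one, at 20620183, had a signal of 60.94 and rank 12104, and lay 1755 bp upstream of H in a coding exon of CG5466. In replicate 1 a summit 426 bp downstream of the H start site ranked 6476 with a signal of 55.66, and replicate 2 and the pooled list had none there. With 3.85 and 6.98 kb, Su(H) and H were the shortest of the 10 genes.

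Numb (FBgn0002973), at chr2L:9437469-9464184 on the plus strand, encodes the membrane-associated inhibitor of Notch that passes to one daughter of a dividing neural precursor. Its strongest region, chr2L:9449548-9449780, had a signal of 396.36 in the pooled libraries (rank 505), 257.2 in replicate 1 (rank 384) and 134.0 in replicate 2 (rank 932). The summit was 142 bp upstream of the internal start site at 9449830. The upstream start site, at 9437469, had a pooled relaxed summit 3 bp away of rank 20523 and no IDR summit. The other numb summits, at 9447941 and 9448145, had signals of 174.0 and 120.17 in overlapping regions of intron 2, 1889 and 1685 bp upstream of the internal start site.

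**Figure D2:**
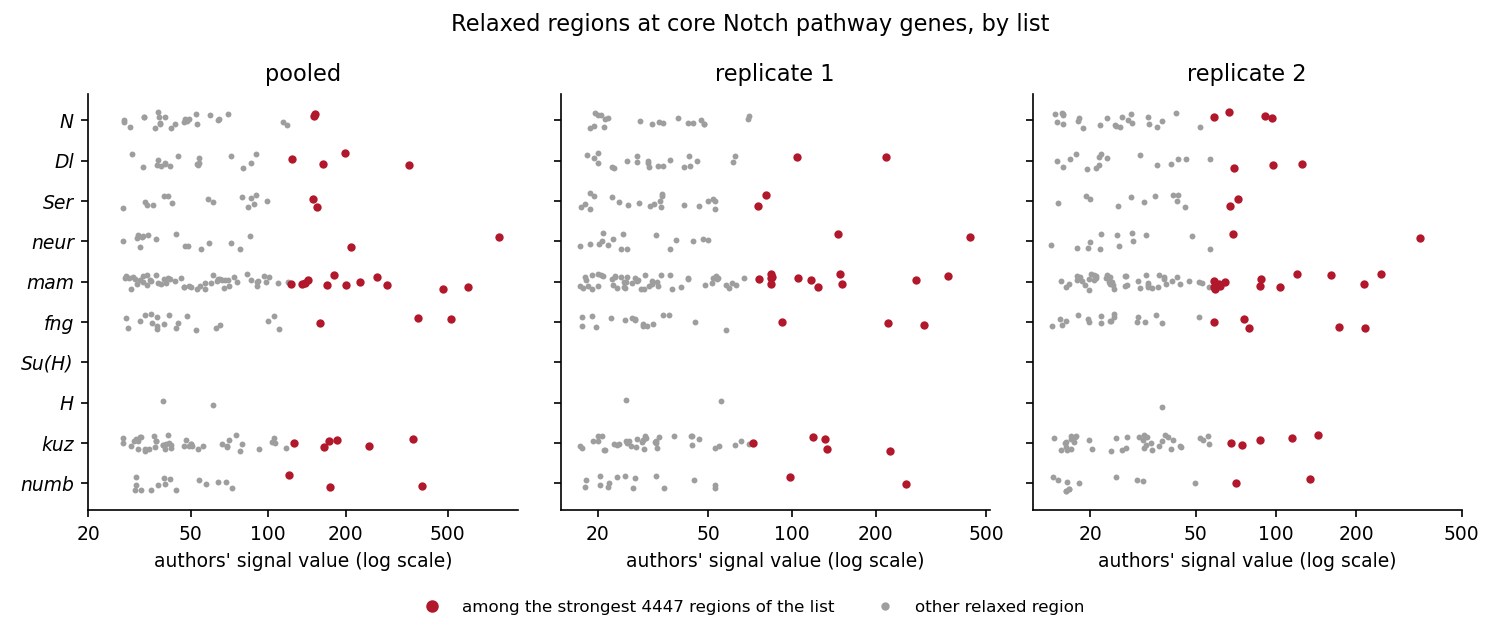
Every relaxed region at the 10 genes in the pooled, replicate 1 and replicate 2 lists. The horizontal axis is the authors' signal value on a log scale, whose units are not stated, so points are not compared between lists. Rows are genes, and red points are among the strongest 4447 regions of that list. Neur holds the highest point in all 3 lists, N has no red point in replicate 1 and 4 in replicate 2, and the row of Su(H) is empty.

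As a group, 8 of the 10 pathway genes were bound in the IDR list, against 24.9% of all protein-coding genes. In replicate 1 alone 7 members had a summit among the strongest regions, against 24.7% of all genes, and in replicate 2 alone 8 members did, against 26.0%. The replicates gave 28 and 36 summits at these genes, a mean of 32 ± 5.66 (SD, n = 2). Of the 10 members, 8 had 2 or more IDR summits, against 8.93% of all genes. These 8 are all of the bound members, and of the 3470 bound genes of the annotation 1245 had 2 or more. In the relaxed pooled list 9 members had a summit, against 59.8% of all genes, and 14.1% of the 241 relaxed pooled summits at the members were in the IDR list, against 14.8% of all relaxed pooled regions. The share of relaxed regions that reached the IDR list was thus near that of the whole list, while both kinds of region were denser at these genes: 0.94 IDR summits per 10 kb over the 362 kb searched, against 0.381 over all protein-coding gene windows and 0.332 over the chromosome arms. Relaxed pooled summits numbered 6.66 per 10 kb at the members and 2.24 over the arms.

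Gene length moved with these counts. Of the 7 members over 20 kb all 7 were bound, against 56.4% of all genes of that length, and all 7 had 2 or more IDR summits, against 40.7%. Of the 2 members of 5 to 20 kb, neur was bound and H was not, against 39.3% of genes of that length bound. The single member under 5 kb, Su(H), was not bound, against 18.4% of such genes. Over 20 kb, summed summits over summed searched sequence came to 1.00 IDR summits per 10 kb at the members and 0.349 at all genes, and to 6.91 against 2.42 for relaxed pooled summits. How far length, accessible chromatin or other features of the genes account for the counts was not tested.

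**Figure D3:**
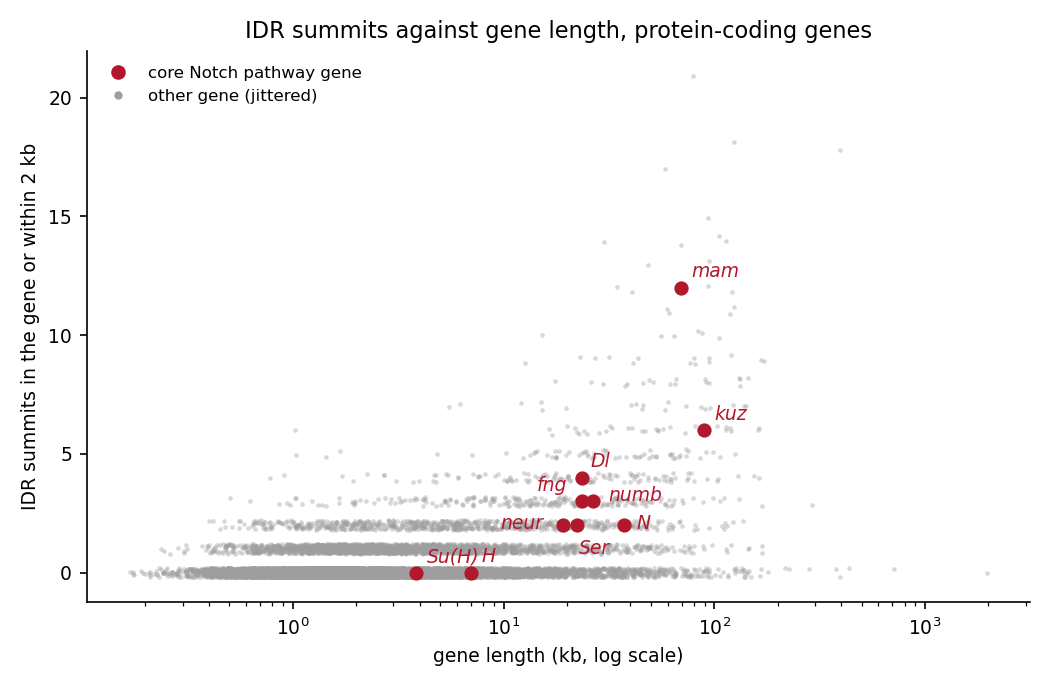
IDR summits in each protein-coding gene or within 2 kb of it (vertical axis) against gene length in kb (horizontal axis, log scale). Red points are the 10 Notch pathway genes and grey points, spread vertically to separate them, are the other genes. Mam, with 12 summits in 69.2 kb, stands highest of the 10, and Su(H) and H lie at 0 at the short end.

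In pooled signal the regions were typical of the IDR list, with a median rank of 2347 of 4447. Among the strongest 4447 regions of each replicate, the members' summits had a median rank of 1738 in replicate 1 and 2312 in replicate 2. With each IDR summit assigned to its nearest TSS the median rank was 1923. The median signal was 177.3 at the members and 182.7 over all IDR regions, with a range of 120.2 to 788.85 at the members and 119.6 to 2129.8 over all. Of the 34 regions, 4 (11.8%) were among the strongest 500, against 11.2% of all regions: 1 at neur, 2 at mam and 1 at fng. All 34 were at the highest −log10 q-value of the pooled list, 4.15, which 7005 pooled regions share, so that the q-value gives no order among them.

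In position the members' summits were more often intronic and less often at start sites than the list as a whole, which describes these 34 regions without a test. The 2 sets are not alike: a member's summit had to lie in the gene or within 2 kb, and 7 of the 10 members are over 20 kb. The whole list also holds summits at short genes and away from genes. How far the rule and gene length set these shares was not tested. Introns held 24 of 34 (70.6%), against 43.0% of all IDR summits. A start site of any protein-coding gene lay within 500 bp of 8 (23.5%, Wilson 95% interval 12.44 to 40.0%), against 36.9% (35.52 to 38.35%) of all, and 2 of these 8 were at B4 and not at a member. Replicates 1 and 2 gave promoter shares of 25.0% and 22.2%, a mean of 23.6 ± 1.96% (SD, n = 2). Intergenic sequence held 2 (5.88%), against 18.5% of all. No summit at the members was in a coding exon or a UTR outside the promoter windows. Counted by start site, 13 of the 15 annotated for the members had a relaxed pooled summit within 500 bp. No share over all start sites was computed for that list, so the count is not read further. An IDR summit lay within 500 bp of 6 of the 15, against 11.6% of all protein-coding start sites. The 6 belong to Dl, neur, mam and numb. In the pooled list those of N, Ser, fng and kuz had relaxed regions alone. At the fng and N start sites the replicate 2 regions ranked 2519 and 3450, inside the strongest 4447 of that replicate. In replicate 1 they ranked 13077 and 8452.

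Of the 34 summits, 29 lay inside the member, 5 upstream and 0 downstream. The median distance to the nearest start site of the member was 4418.5 bp, and 15 were over 5 kb away. A start site of another gene was nearer for 10, so that assigning these to the pathway gene rests on the rule of position and not on any measure of regulation. The regions also came in groups: 16 (47.1%) had another IDR summit within 1 kb, against 25.1% of all IDR summits, and 8 (23.5%) overlapped another IDR region, against 11.8%. Merging the 4 overlapping pairs left 30 regions at the same 8 genes.

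The replicates ranked the members' regions much as they ranked the rest. All 34 overlapped a relaxed region of each replicate, and 28 (82.4%) overlapped one among the strongest 4447 of both, against 74.8% of all IDR regions. For replicate 1 the count was 31 (91.2%, against 87.9% of all) and for replicate 2 it was 30 (88.2%, against 85.6%). Spearman's rho between the replicate ranks was 0.733 over the 34 regions and 0.72 over the 4429 IDR regions with a match in both, as a description of regions chosen from the same 2 libraries. The median shift of the summit from the pooled list was 14 bp in replicate 1 and 26.5 bp in replicate 2 at the members, and 7 and 21 bp over all. In each of the 4 overlapping pairs at the members, both regions rest on the same match in each replicate. These 8 regions are all among the 28, and overlap was more common at the members (23.5%) than over all IDR regions (11.8%).

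**Figure D4:**
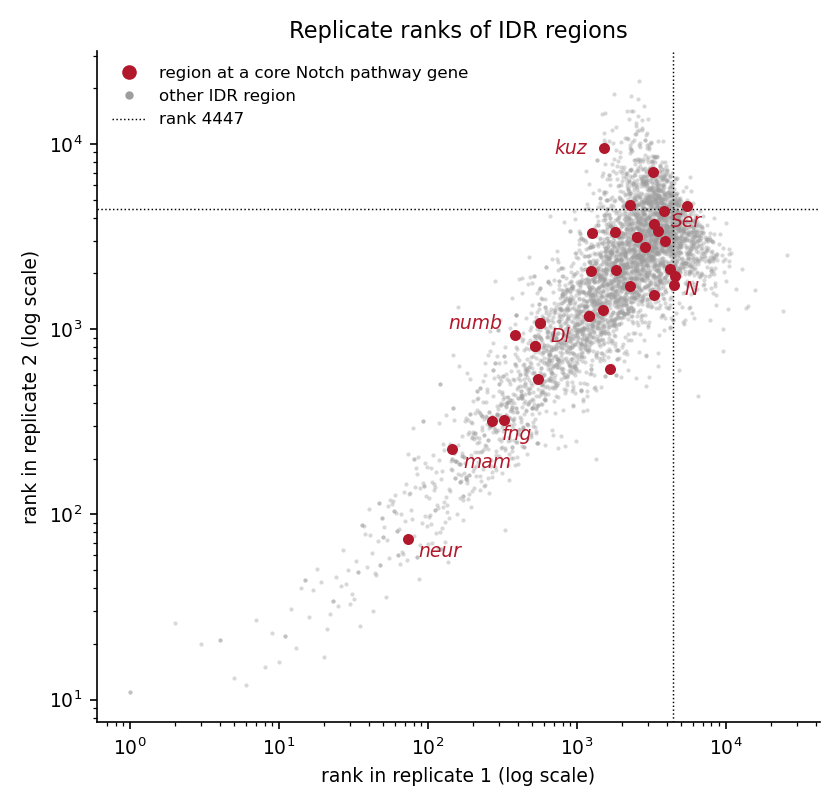
Rank of each IDR region in replicate 1 (horizontal axis) and replicate 2 (vertical axis), both on log scales, where low ranks are strong. Red points are regions at the Notch pathway genes, grey points the other IDR regions, and dotted lines mark rank 4447. The strongest neur region sits at ranks 73 and 74, both N regions lie just right of the vertical line, and the kuz region at ranks 1523 and 9484 is the farthest red point above the horizontal line.

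Short words were counted within 100 bp of each summit, on both strands, where words may overlap one another. TAATTA, the core of many homeodomain sites, was in 4 of 34 windows (11.8%, Wilson 95% interval 4.67 to 26.6%) at the members and in 13.6% of all IDR windows. The variant CAATTA was in 5 (14.7%), against 15.9% of all, and 4 of those 5 were at mam. GAGAGA, bound by GAGA factor, was in 5 (14.7%), against 16.3%, and in 7.14% of the members' windows without replicate 2, that is from the strongest regions of replicate 1 alone. TGGGAA, the core of the Su(H) site, was in 3 (8.82%), against 10.1%. The Zelda core CAGGTA was in 2 (5.88%), against 3.58%, and the E-box CAGCTG was in 4 (11.8%), against 7.51%. Neither order held at every window size: within 200 bp CAGGTA was in 5.88% at the members and 7.92% of all, and within 50 bp CAGCTG was in 0 of 34 and 3.06% of all. The CAGGTA share at the members was 3.57% without replicate 2 and 3.33% with overlapping regions merged. The DREF word TATCGATA was in 0 of 34, which allows a share of up to 8.82% by a floor of 3 counts (the Wilson interval drawn for it reaches 10.2%), and in 0.742% of all. The members' windows were 36.6% G and C and all IDR windows 38.4%. Each of the 7 shares over all IDR windows lay inside the members' interval, and a match is a run of letters, not a shown binding site.

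**Figure D5:**
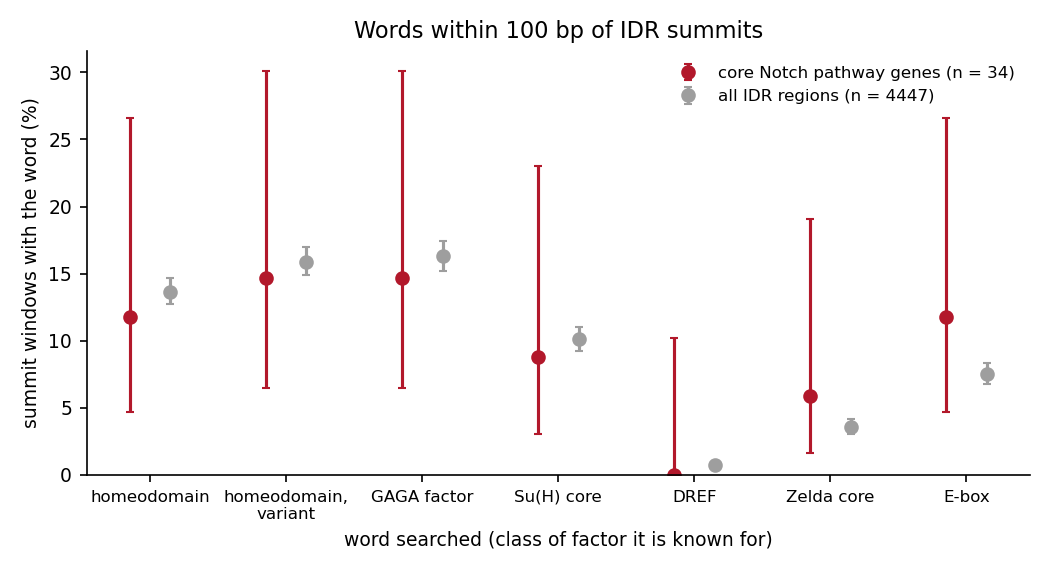
Share of summit windows, 100 bp on each side (vertical axis, percent), that hold each of the 7 words, named by the factor class each is known for. Red points are the 34 windows at the Notch pathway genes, grey points all 4447 IDR windows, and bars are Wilson 95% intervals for counting error. The grey points lie inside the red intervals for all 7 words.

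A wider list of 40 Notch pathway genes was set out by role, with earlier results of these data known. Of these, 22 (55.0%) had an IDR summit, against 24.9% of all protein-coding genes. Among the strongest regions of replicates 1 and 2, 24 and 23 had a summit, against 24.7% and 26.0% of all genes. These genes are shorter: 12 of 26 under 5 kb were bound (against 18.4% of all such genes), and 9 of 13 of 5 to 20 kb (against 39.3%). The 1 over 20 kb was bound (against 56.4%). Of the 26 genes under 5 kb, 11 lie close together in the Enhancer of split cluster, and these 11 gave 7 of the 12 bound. The roles hold few genes each, and their counts below are to be read beside these shares by length. For ligand ubiquitination and endocytosis all 3 genes were bound, led by mib1, a ligase for Delta and Serrate (signal 313.7), and lqf, the epsin (170.4). All 3 are of 5 to 20 kb, a length at which 39.3% of all genes were bound. For cleavage 3 of 6 were bound, led by kul, a metalloprotease (439.4), and aph-1, a gamma-secretase subunit (225.7). Kul is 9.53 kb long and the other cleavage genes are under 5 kb. For nuclear partners and co-repressors 4 of 5 were bound, led by nej, the CBP acetyltransferase (492.4), and gro, the co-repressor Groucho (326.8). The bound 4 are 8.18 to 21.6 kb long and the unbound one is 2.73 kb, so their count went with length. For receptor trafficking and turnover 4 of 10 were bound, led by lgd, an endosomal sorting factor (365.9), and bib, big brain (329.9). Frc, a nucleotide-sugar transporter that serves Fringe, was bound (262.7).

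The receptor glycosylation and folding genes O-fut1, rumi, Xxylt and shams made the role with 0 of 4 bound, and all 4 are under 5 kb, a length at which 18.4% of all genes were bound, so that 0 of 4 is no result about the role. Rumi had 1 summit among the strongest of replicate 1 and none among those of replicate 2. Of the 11 target genes in the Enhancer of split cluster, all under 5 kb, 7 were bound, against 18.4% of all genes of that length. They were led by E(spl)mdelta-HLH, a bHLH repressor (509.7), and E(spl)malpha-BFM, a Bearded family gene (475.5). The cluster's genes lie close together and gave 9 distinct summits, and 1 of them, at 26042478, is counted for both E(spl)m8-HLH and gro. For 10 of the 22 bound genes the strongest summit was nearer to the start of another gene. They include all 3 bound cleavage genes: kul (CG7601 at 35 bp), aph-1 (Snx21 at 151 bp) and Tace (Nlp at 581 bp). Also among them are mib1 (hzg at 136 bp), frc (Coq4 at 105 bp) and E(spl)mdelta-HLH (CG43116 at 301 bp). The signals given for these genes thus lie nearer to a neighbour's start site.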

How the data were processed

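ChIP-seq of bsh-GFP was deposited for 2 biological replicates, with fragments of 200 to 800 bp per the labels. The deposited region lists give each region's signal and −log10 q-value as the authors' peak calling made them, on dm6. Pooled and replicate relaxed lists hold 30000 regions each, per the deposited files, and the optimal IDR list holds 4447. The sources used here do not give the caller, the IDR threshold, the signal's scale or the read depth. Lists on dm3 were not used.

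Summits were assigned to genes of Ensembl release 115 with a 2 kb flank, and those within 500 bp of a protein-coding TSS were set down as promoter summits. Region ends were checked against chromosome lengths of the Release 6 sequence. Overlap meant at least 1 bp. Scripts used Python 3.11.15, pandas 2.3.3 and numpy 2.4.6, and were tested on simulated data.

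The members, word list and wider gene list were chosen with earlier results of these data known. Dl was matched by hand to Delta, since a synonym is shared with dl, and 3 of the 40 wider genes were matched through a RefSeq synonym. By rule all members were named, with every IDR summit for members with at most 6 and the 6 strongest otherwise, and up to 2 genes per role of the wider list. The 3 start-site summits of mam, other mam ranges, regions near the IDR limit and the 4 word-bearing windows were added after their values were seen.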

Additional observations from a re-analysis of the deposited data

How the results depend on the processing

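The number of bound members was between 6 and 8 in every alternative run, 6 with the stronger 2223 IDR regions and 7 when each summit went to its nearest TSS. With 1 replicate left out in turn, the strongest regions of the other gave 7 and 8 members, and 28 and 36 summits. Those 2223 regions left 16 summits with a median signal of 320.2, and assignment by nearest TSS gave a median of 198.9. Both follow from which regions are kept. The promoter share was 11.76% with a 200 bp window, 26.47% with 1000 bp, 17.65% with the members' start sites alone and 26.67% with overlapping regions merged. The TAATTA share was 5.882% within 50 bp and 20.59% within 200 bp, and 11.11% to 14.29% in single replicates. Regions matched in both replicates numbered 23 when an overlap of 50% of each region, or summits within 100 bp, was asked. For the shares of the other words and the median rank, 17 of 37 values under an alternative moved by more than 1 SD of the 2 single-replicate values, which is narrower than the Wilson interval of a share. Median signal was not recomputed from single replicates, since the scale is not stated and signal was not compared between lists. Unknown depth limits what a missing region, as at Su(H), can show.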
